A study of Homo sapiens with 8 samples.

Results

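Vitamin K-dependent proteins and the TAM receptors were followed as a group of 9 genes out of the 20339 genes in the count table, chosen by name. The choice was made with earlier results of these data known. The group holds MGP itself, the carboxylation enzymes GGCX, VKORC1 and VKORC1L1, the ligands GAS6 and PROS1, and the receptors AXL, TYRO3 and MERTK. All 9 genes were in the table. RNA was sequenced in 8 libraries, 1 per condition, from OVCAR3 and COV318, which are established human ovarian carcinoma lines labelled as epithelial cells from ascites. OVCAR3-MGPKO cells carried a CRISPR-Cas9 knockout of MGP, made with a pair of guides against exon 1 and isolated as clones. OVCAR3-CTR was their control, and all 4 OVCAR3 libraries were from passage 4. COV318-MGP cells carried the human MGP cDNA in a lentiviral vector, COV318-CTR cells carried the empty vector, both were puromycin-selected, and all 4 COV318 libraries were from passage 18. Each population was sequenced as adherent cells (bulk) and as spheres enriched for ovarian cancer stem cells (OCSC). By the paper's methods, adherent cells grew in media with serum, which differed between the lines. The sphere medium held added growth factors, and no serum is listed for it. The sources do not say which clone gave the OVCAR3-MGPKO libraries. In OVCAR3, a difference between clones and the knockout of MGP therefore cannot be told apart.

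MGP (matrix Gla protein) is a small secreted protein that restrains calcification of soft tissue. Like clotting factors, it works only after certain glutamate residues are carboxylated to Gla residues, a step that GGCX carries out with reduced vitamin K as its cofactor. VKORC1, the target of warfarin, and its paralog VKORC1L1 reduce the spent vitamin K again. GAS6 and protein S (PROS1) are larger Gla proteins that bind phosphatidylserine on dying cells and platelets and activate the receptor tyrosine kinases TYRO3, AXL and MERTK, which are known for clearing apoptotic cells and damping inflammation. AXL is also known as a receptor of invasive, mesenchymal-like carcinoma cells.

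MGP counts separated the COV318 labels but not the OVCAR3 labels. In hg38 the gene (ENSG00000111341.10, chr12:14880864-14885857, minus strand) is on chromosome 12. The bulk library of COV318-MGP held 40393 MGP counts and its OCSC library 28694, whereas COV318-CTR had 1 and 0. These made up 0.135% of all counts in COV318-MGP bulk (rank 32 among genes) and 0.216% in OCSC (rank 18). In OVCAR3 it had 0 counts in CTR bulk, 0 in MGPKO bulk, 1 in CTR OCSC and 2 in MGPKO OCSC. In bulk the normalized MGP count of COV318-MGP was 41246 times that of COV318-CTR, with an interval of 7402 to 1629160 set by the single control count. In OCSC it was at least 9214-fold higher, with 3 counts per library taken as the floor. No fold is given for OVCAR3, where all 4 libraries were under the floor. In these counts, a comparison of OVCAR3-MGPKO with OVCAR3-CTR is therefore a comparison by label, with no difference in MGP detectable at this depth. The paper itself reports MGP protein in OVCAR3 by immunoblot. It also reports loss of MGP in the knockout by RT-qPCR, immunoblot and immunofluorescence. Why the control libraries held almost no MGP counts was not tested.

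Total counts ran from 12294591 to 37393919 per library, so the floor of 3 counts was 0.0802 to 0.244 CPM, the count scaled to a common library total. With 1 library per condition there is no replicate check, no test was run and no p-value is given. Intervals in the text are exact 95% intervals for a ratio of counts and cover counting error only. The COV318-MGP libraries stood apart. Across all 20339 genes, which are not independent replicates, COV318-CTR correlated less with them (Pearson r of log2 values from 0.747 to 0.757) than with OVCAR3 (0.798 to 0.806). The COV318-MGP libraries also correlated more with OVCAR3 (0.771 to 0.786) than with COV318-CTR. Of 11 epithelial and Mullerian markers, 11 were above the floor in every OVCAR3 and COV318-CTR library, with summed levels of 7710 to 13200 CPM and 1050 to 2530 CPM. In both COV318-MGP libraries 5 of 11 were above it, EPCAM, CDH1, KRT8, KRT18 and WT1, and the sum was 123 to 447 CPM. KRT7, PAX8 and SOX17 had 0 counts there, and KRT19, MSLN and MUC16 were at or under the floor. The listed markers were thus split on the label of an epithelial cell, at a lower sum than in COV318-CTR. The 8 fibroblast and mesenchymal markers summed to 865 to 1240 CPM in COV318-MGP and 268 to 873 CPM in COV318-CTR. In OVCAR3 the sum was 12.7 to 158 CPM. The bulk sums were alike, 865 CPM in COV318-MGP and 873 CPM in COV318-CTR. VIM made up most of the COV318 sums, with 24774 counts in COV318-MGP bulk and 15748 in its OCSC. Above the floor were 5 of the 8 in each COV318-MGP library, 7 in COV318-CTR bulk and 4 in COV318-CTR OCSC. COL1A2, DCN and THY1 were at or under it in COV318-MGP, and only COL1A2 in COV318-CTR bulk. The 4 endothelial markers in the table summed to 1.06 to 1.24 CPM in COV318-MGP and 53.3 to 69.1 CPM in COV318-CTR. Of 5 hepatocyte markers, APOA1 and SERPINA1 were in the table, with a sum of 0.0671 to 0.377 CPM in COV318-MGP, 32.8 to 60.7 CPM in COV318-CTR, where SERPINA1 was at or under the floor, and 1.92 to 7.15 CPM in OVCAR3. Whether the COV318-MGP libraries hold the same cell line as COV318-CTR could not be settled from the files. In every comparison of COV318-MGP with COV318-CTR, a difference between the cells and a difference in MGP therefore cannot be told apart, and no result on COV318-MGP can be given without these libraries. In bulk RNA, fewer cells of a type and less RNA per cell cannot be told apart.

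**Figure D1:**
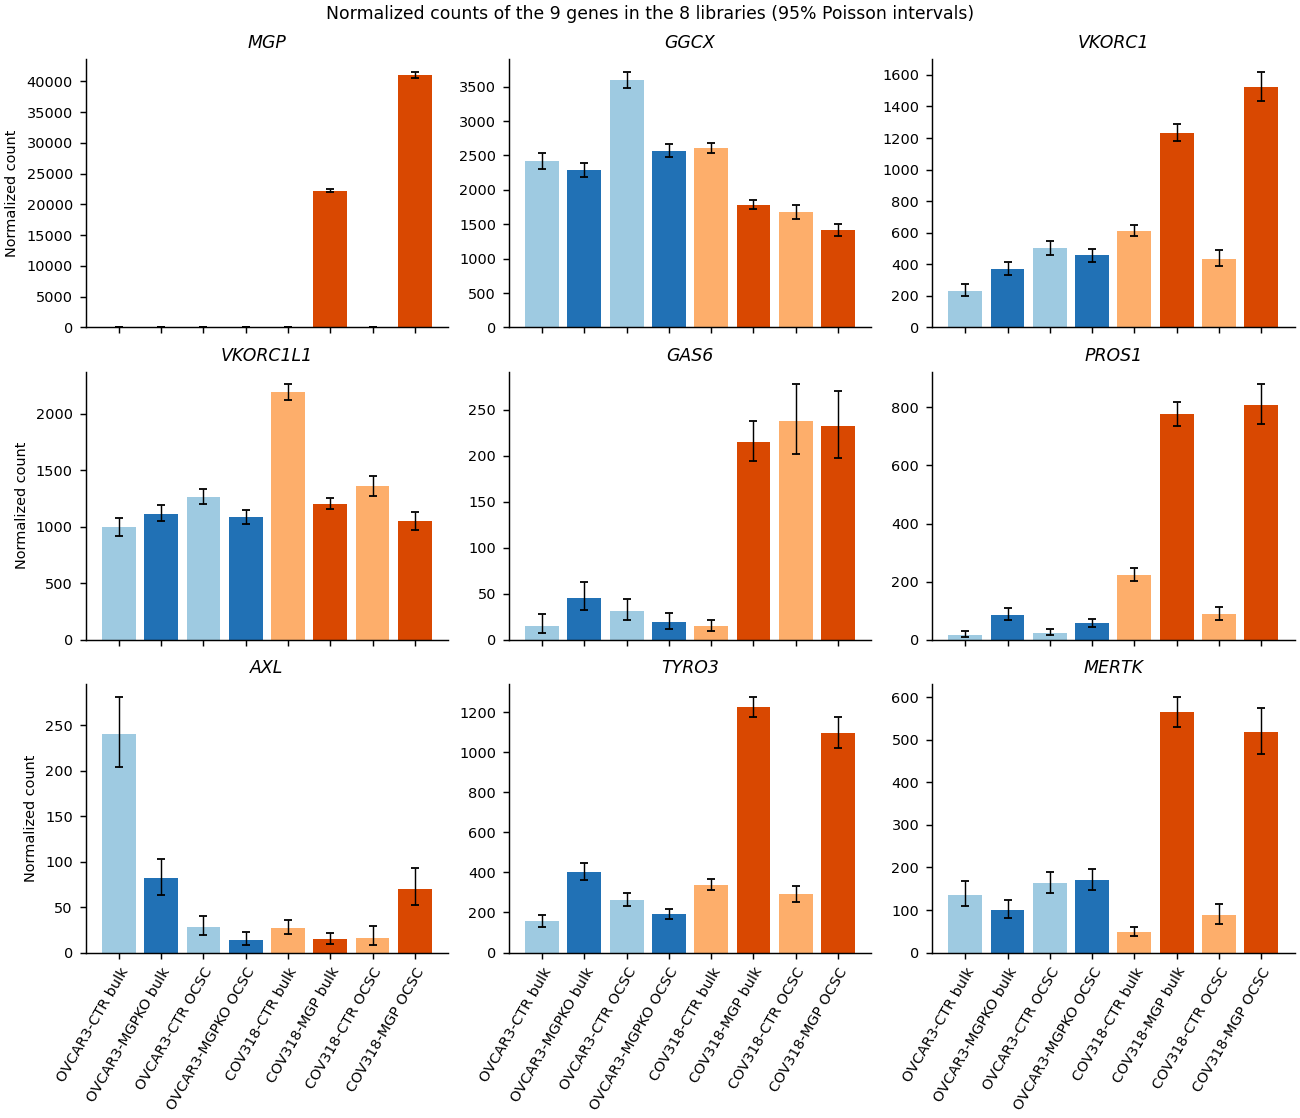
Normalized counts of the 9 genes (vertical axis, linear, own scale in each panel) in the 8 libraries (horizontal axis), with bars for the value of each library and lines for its exact 95% Poisson interval, which covers counting error only. MGP, VKORC1, PROS1, TYRO3 and MERTK were highest in the COV318-MGP libraries (dark orange), AXL was highest in OVCAR3-CTR bulk, and GGCX and VKORC1L1 varied least.

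A log2 fold change (log2FC) was taken on normalized counts (divided by the size factor of the library) with 1 added, and a gene was counted as different when it was at least 2-fold higher or lower with at least 50 counts in both libraries together. Between OVCAR3-MGPKO and OVCAR3-CTR in bulk, GAS6, PROS1 and TYRO3 were higher and AXL was lower, 4 of the 8 members with enough counts, against 15.6% of all genes with enough counts. In OCSC, PROS1 was higher, 1 of 7, against 8.27% of genes. Between COV318-MGP and COV318-CTR in bulk, MGP, VKORC1, GAS6, PROS1, TYRO3 and MERTK were higher, 6 of 9, against 45.6% of genes. In OCSC, MGP, VKORC1, PROS1, AXL, TYRO3 and MERTK were higher, 6 of 9, against 46.8% of genes. MGP is the gene that was introduced and passed the minimum only through COV318-MGP, and without it the counts were 5 of 8 in both cultures. No member was lower by 2-fold in either COV318 comparison, where 23.9% of genes in bulk and 23.3% in OCSC were. With 45.6% and 46.8% of all genes past the threshold in COV318, a member past it is not set apart from the rest of the table. The median log2FC of the members was 0.42 in OVCAR3 bulk, -0.23 in OVCAR3 OCSC, 1.78 in COV318 bulk and 1.92 in COV318 OCSC, beside medians over all genes with enough counts of -0.02, -0.04, -0.04 and 0.02. Without MGP the COV318 medians were 1.39 in bulk and 1.86 in OCSC.

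**Figure D2:**
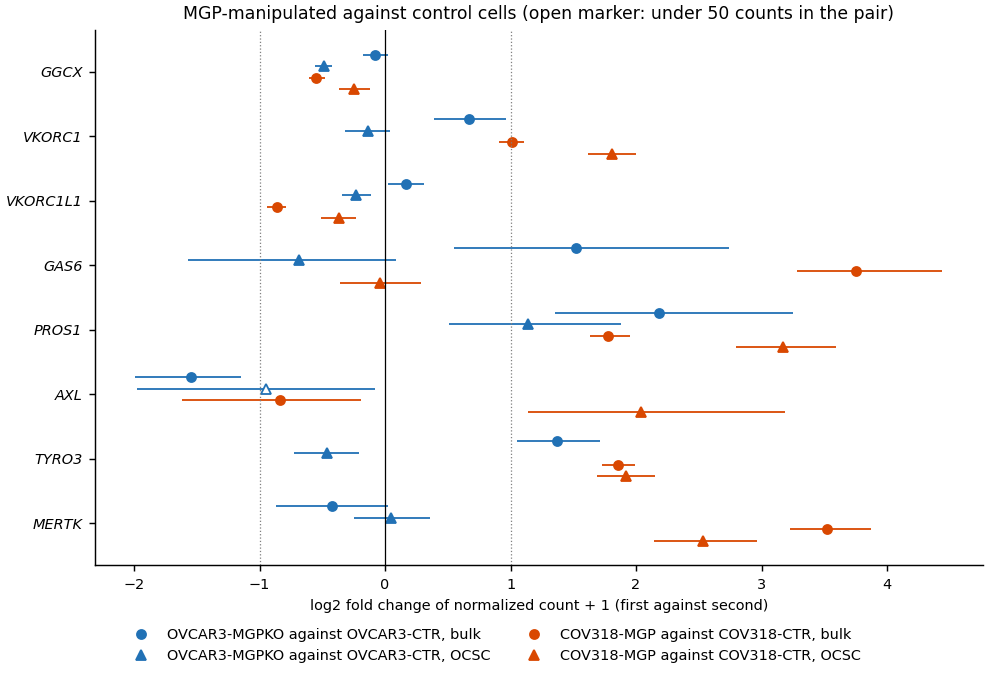
Log2 fold change of normalized count + 1 (horizontal axis) of 8 genes (vertical axis) between MGP-manipulated and control cells, blue for OVCAR3 and orange for COV318, circles for bulk and triangles for OCSC, with lines for the exact 95% counting interval of the ratio and dotted lines at a 2-fold difference. PROS1 lies to the right of 1 in all 4 comparisons, MERTK is far to the right in COV318 and near 0 in OVCAR3, and AXL is left of 0 except in COV318 OCSC.

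The carboxylase was expressed in every library, whether or not its substrate MGP was. GGCX (ENSG00000115486.13, chr2:85544720-85561532, minus strand) had 2415 normalized counts in OVCAR3-CTR bulk, 2283 in OVCAR3-MGPKO bulk, 3599 in OVCAR3-CTR OCSC and 2566 in OVCAR3-MGPKO OCSC. Its COV318 levels were 2611 in CTR bulk, 1785 in MGP bulk, 1676 in CTR OCSC and 1413 in MGP OCSC. Its highest and lowest levels differed 2.55-fold, and none of its 4 differences between MGP-manipulated and control cells reached 2-fold. The log2FC was -0.08 (interval -0.18 to 0.02) in OVCAR3 bulk, -0.49 (-0.56 to -0.42) in OVCAR3 OCSC, -0.55 (-0.61 to -0.48) in COV318 bulk and -0.25 (-0.37 to -0.12) in COV318 OCSC. With counts scaled to CPM, the OVCAR3 bulk value turned to 0.06. MGP transcripts outnumbered those of the enzyme in COV318-MGP, with 57.0 MGP per GGCX transcript on a per-length scale in bulk (55.0 to 59.1) and 133 in OCSC (125 to 142). These ratios take the 1650 bases of the canonical MGP transcript. The introduced MGP is a cDNA in a lentiviral vector, and the length of its transcript is not stated. The ratios are therefore rough, and their intervals do not cover that uncertainty. Of the canonical GGCX transcript, 7.44% overlaps MAT2A on the opposite strand.

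Of the 2 reductases of vitamin K, VKORC1 passed the 2-fold threshold upward between COV318-MGP and its control, whereas VKORC1L1 stayed within 2-fold. VKORC1 (ENSG00000167397.15, chr16:31090842-31095980, minus strand) had 233 normalized counts in OVCAR3-CTR bulk, 371 in OVCAR3-MGPKO bulk, 502 in OVCAR3-CTR OCSC and 456 in OVCAR3-MGPKO OCSC. COV318 gave 613 in CTR bulk, 1234 in MGP bulk, 435 in CTR OCSC and 1525 in MGP OCSC. The COV318-MGP libraries were thus the highest, with a log2FC against control of 1.01 (0.91 to 1.11) in bulk, just at the threshold, and 1.81 (1.62 to 2.00) in OCSC. In OVCAR3 the log2FC was 0.67 (0.39 to 0.96) in bulk and -0.14 (-0.32 to 0.04) in OCSC. VKORC1L1 (ENSG00000196715.7, chr7:65873074-65959563, plus strand) lay between 995 normalized counts in OVCAR3-CTR bulk and 2191 in COV318-CTR bulk. Apart from COV318-CTR bulk its libraries lay between 995 and 1358, and only 1 of the 7 steps between neighbouring levels, the one below COV318-CTR bulk, was larger than counting error. It was lower in COV318-MGP than in COV318-CTR, by less than 2-fold, with a log2FC of -0.86 (-0.94 to -0.79) in bulk and -0.37 (-0.51 to -0.23) in OCSC. In OVCAR3 the VKORC1L1 log2FC of the knockout was 0.17 (0.02 to 0.31) in bulk and -0.23 (-0.34 to -0.11) in OCSC. Levels that were not neighbours could thus differ beyond counting error.

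The ratio of the paralogs shows the same difference within each library, free of the scaling between libraries. Per length of the canonical transcripts, VKORC1 was 1.70 to 3.05 times as abundant as VKORC1L1 in the OVCAR3 libraries, 2.03 times in COV318-CTR bulk and 2.32 times in COV318-CTR OCSC. In COV318-MGP the ratio was 7.43 (7.0 to 7.88) in bulk and 10.5 (9.56 to 11.6) in OCSC. With the union of all annotated exons as the length, the ratios ran from 0.651 to 4.04 and fell below 1 in both OVCAR3 bulk libraries and in COV318-CTR, so there the more abundant paralog depends on the length used, whereas the order of the libraries does not. A readthrough transcript on the same strand covers 71.67% of the canonical VKORC1 transcript, and the neighbouring gene PRSS53 went from 41 counts in COV318-CTR to 406 in COV318-MGP in bulk and from 19 to 110 in OCSC. The share of VKORC1 reads from such transcripts was not tested.

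**Figure D3:**
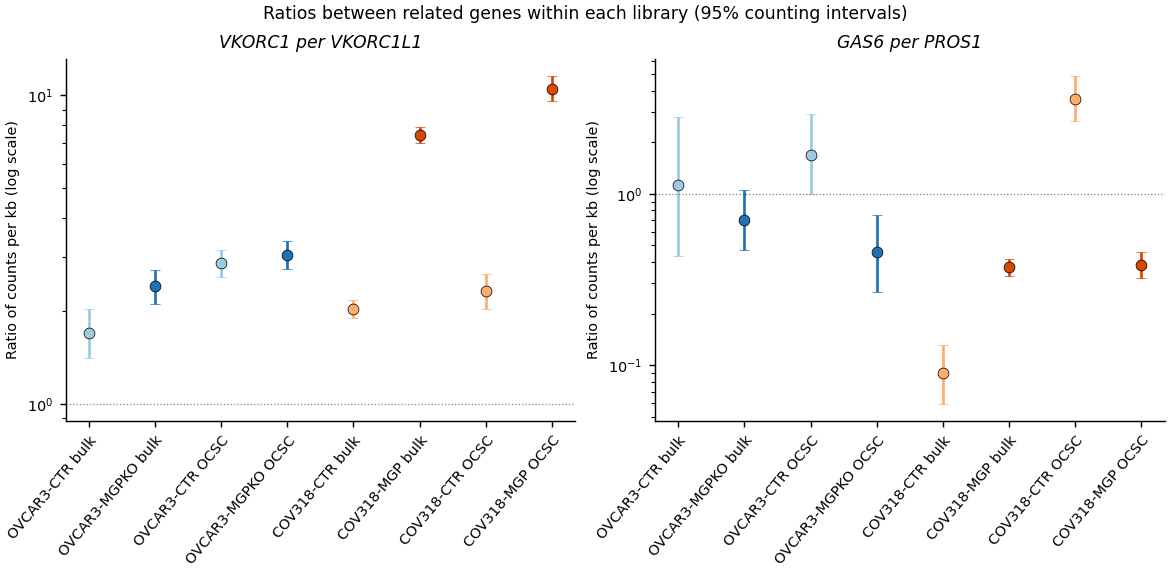
Ratio of counts per kb (vertical axis, log scale) of VKORC1 to VKORC1L1 (left) and of GAS6 to PROS1 (right) in each of the 8 libraries (horizontal axis), with points for the ratio, lines for its exact 95% counting interval and a dotted line at equal abundance. The VKORC1 ratio is highest in both COV318-MGP libraries, and the GAS6 ratio runs from 0.0901 in COV318-CTR bulk to 3.59 in COV318-CTR OCSC.

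Of the TAM ligands, PROS1 differed in all 4 comparisons with MGP-manipulated cells. PROS1 (ENSG00000184500.16, chr3:93873051-93980003, minus strand) encodes protein S, a cofactor of activated protein C. It had 18.5 normalized counts in OVCAR3-CTR bulk, 87.3 in OVCAR3-MGPKO bulk, 25.2 in OVCAR3-CTR OCSC and 56.8 in OVCAR3-MGPKO OCSC. In COV318 it had 225 in CTR bulk, 775 in MGP bulk, 89.2 in CTR OCSC and 809 in MGP OCSC. The MGP-manipulated library was thus the higher one in each line and culture, in the knockout as well as in the overexpressing cells. Clone and knockout in OVCAR3, and cells and MGP in COV318, cannot be told apart. The log2FC was 2.18 (1.35 to 3.25) in OVCAR3 bulk, from 12 to 76 counts, and 1.14 (0.51 to 1.88) in OVCAR3 OCSC, from 27 to 65 counts. It was 1.78 (1.63 to 1.95) in COV318 bulk and 3.17 (2.80 to 3.59) in COV318 OCSC. The highest level, in COV318-MGP OCSC, was 43.7 times the lowest, the widest range of the members other than MGP.

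GAS6 (ENSG00000183087.15, chr13:113820549-113864076, minus strand) is the ligand that binds all 3 TAM receptors. It had 15.4 normalized counts in OVCAR3-CTR bulk, 46.0 in OVCAR3-MGPKO bulk, 31.7 in OVCAR3-CTR OCSC and 19.2 in OVCAR3-MGPKO OCSC. The COV318 libraries had 15.1 in CTR bulk, 215 in MGP bulk, 238 in CTR OCSC and 232 in MGP OCSC. COV318-CTR bulk was thus as low as OVCAR3, while the other 3 COV318 libraries were high, and neighbours among them did not differ beyond counting error. In COV318 the log2FC of the MGP cells was 3.75 (3.28 to 4.44) in bulk and -0.04 (-0.36 to 0.29) in OCSC. In OVCAR3 it was 1.52 (0.55 to 2.74) in bulk, from 10 to 40 counts, and -0.69 (-1.57 to 0.09) in OCSC, from 34 to 22 counts. The antisense gene GAS6-AS1 overlaps 13.28% of the canonical GAS6 transcript, and without a stated strand setting its reads cannot be told apart from those of GAS6.

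Which ligand was the more abundant differed by library. Per length, GAS6 exceeded PROS1 in COV318-CTR OCSC, with a ratio of 3.59 (2.65 to 4.91), and was far below it in COV318-CTR bulk, with 0.0901 (0.0591 to 0.132). In COV318-MGP the ratio was nearly the same in both cultures, 0.373 (0.332 to 0.417) in bulk and 0.386 (0.322 to 0.460) in OCSC. In OVCAR3 it ran from 0.455 to 1.69 on 10 to 76 counts per gene. Summed per kb, the ligands of COV318-MGP reached 316 normalized counts in bulk and 332 in OCSC, compared with 72.8 and 121 in COV318-CTR and 11.6 to 44.2 in OVCAR3.

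The receptors differed in their start regions as well as in their levels. The 250 bases upstream of a RefSeq start of each receptor (GRCh38.p14), for AXL and TYRO3 the more upstream of 2 starts, are shown because TYRO3 and MERTK were both higher in COV318-MGP and AXL followed another pattern. Capitals mark the GC box, GGGCGG or its reverse complement CCGCCC, searched on both strands. The windows are chr19:41218973-41219222 (plus strand) for AXL, chr15:41558962-41559211 (plus strand) for TYRO3 and chr2:111898357-111898606 (plus strand) for MERTK, and each line runs 5′ to 3′ toward that start. The TYRO3 window lies inside the GENCODE span of the gene given below with its levels.
AXL: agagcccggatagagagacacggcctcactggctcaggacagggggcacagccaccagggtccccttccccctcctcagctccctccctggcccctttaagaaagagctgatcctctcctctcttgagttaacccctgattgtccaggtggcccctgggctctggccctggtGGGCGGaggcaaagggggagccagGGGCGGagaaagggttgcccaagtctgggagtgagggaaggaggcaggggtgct
TYRO3: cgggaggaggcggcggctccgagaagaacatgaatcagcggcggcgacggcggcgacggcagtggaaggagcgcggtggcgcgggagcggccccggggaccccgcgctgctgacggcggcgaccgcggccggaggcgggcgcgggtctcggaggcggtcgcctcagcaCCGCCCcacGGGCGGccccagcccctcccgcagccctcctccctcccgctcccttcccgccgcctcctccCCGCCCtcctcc
MERTK: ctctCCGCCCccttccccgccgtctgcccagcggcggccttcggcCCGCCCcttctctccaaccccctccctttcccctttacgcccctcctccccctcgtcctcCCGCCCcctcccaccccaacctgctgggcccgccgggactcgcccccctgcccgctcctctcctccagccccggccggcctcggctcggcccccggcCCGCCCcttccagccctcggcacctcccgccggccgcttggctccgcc
The windows hold 2 GC boxes in AXL, 3 in TYRO3 and 4 in MERTK, and 42.6% of the 35116 RefSeq promoter windows of this length hold at least 1. AXL has 4 CpG dinucleotides, TYRO3 39 and MERTK 25, against a median of 11. None of the 3 windows holds CCAAT (in 32.0% of windows on either strand), TATAAA (10.7%), CACGTG (6.34%) or TGACTCA (4.20%). PROS1 and VKORC1 were also 2-fold higher in COV318-MGP in both cultures. The PROS1 window has 9 CpG dinucleotides and 2 GC boxes, and the VKORC1 window 22 and 0. These letters describe the windows and were not tied to the levels. RefSeq windows were matched for 8 of the 9 genes.

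AXL was highest in OVCAR3-CTR bulk. AXL (ENSG00000167601.12, chr19:41219223-41261766, plus strand) had 241 normalized counts in OVCAR3-CTR bulk, 81.6 in OVCAR3-MGPKO bulk, 28.0 in OVCAR3-CTR OCSC and 14.0 in OVCAR3-MGPKO OCSC. In COV318 it had 27.5 in CTR bulk, 14.8 in MGP bulk, 16.3 in CTR OCSC and 70.1 in MGP OCSC. Within OVCAR3, AXL was lower in the knockout of each culture and lower in OCSC of each genotype, and OVCAR3-CTR bulk was above the next library beyond counting error. The log2FC of OVCAR3-MGPKO against OVCAR3-CTR was -1.55 (-1.99 to -1.15) in bulk and -0.95 (-1.98 to -0.08) in OCSC, the latter from 30 to 16 counts, under the minimum of 50 together. In COV318 the direction differed between cultures, with -0.84 (-1.62 to -0.19) in bulk, from 51 to 27 counts, and 2.04 (1.14 to 3.19) in OCSC, from 11 to 49 counts.

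TYRO3 (ENSG00000092445.12, chr15:41557675-41583589, plus strand), the TAM receptor best known from the nervous system, had 156 normalized counts in OVCAR3-CTR bulk, 403 in OVCAR3-MGPKO bulk, 263 in OVCAR3-CTR OCSC and 191 in OVCAR3-MGPKO OCSC. The COV318 levels were 337 in CTR bulk, 1224 in MGP bulk, 290 in CTR OCSC and 1097 in MGP OCSC. The COV318-MGP libraries lay far above the other 6, by a log2FC of 1.86 (1.73 to 1.99) in bulk and 1.92 (1.69 to 2.15) in OCSC against their controls. In OVCAR3, the knockout was higher than the control in bulk, with 1.37 (1.05 to 1.71), and lower in OCSC, with -0.46 (-0.73 to -0.21). The pseudogene TYRO3P had 1 to 17 counts per library, so few reads were assigned to it.

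MERTK (ENSG00000153208.19, chr2:111898607-112029561, plus strand), the receptor with which macrophages and retinal pigment epithelium clear dead cells and shed membrane, had 136 normalized counts in OVCAR3-CTR bulk, 101 in OVCAR3-MGPKO bulk, 164 in OVCAR3-CTR OCSC and 170 in OVCAR3-MGPKO OCSC. COV318 gave 48.5 in CTR bulk, 565 in MGP bulk, 89.2 in CTR OCSC and 518 in MGP OCSC. MERTK was thus lowest in COV318-CTR and highest in COV318-MGP, with OVCAR3 in between. Its log2FC in COV318 was 3.52 (3.23 to 3.87) in bulk and 2.53 (2.14 to 2.96) in OCSC, the largest of the receptors in both cultures. In OVCAR3 it was -0.42 (-0.87 to 0.02) in bulk, on 88 counts in each library, and 0.05 (-0.25 to 0.36) in OCSC. Of 6 leukocyte and macrophage markers listed, 2 were in the table, with a sum of at most 5.11 CPM in any library.

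Per length, the make-up of the receptor transcripts differed between the libraries. AXL made up 48.2% of TAM receptor transcripts in OVCAR3-CTR bulk and led there. TYRO3 led in OVCAR3-MGPKO bulk with 53.5%, in COV318-CTR bulk with 69.4% and in COV318-CTR OCSC with 57.4%. MERTK led in OVCAR3-CTR OCSC with 52.6% and in OVCAR3-MGPKO OCSC with 62.5%. In COV318-MGP, TYRO3 and MERTK were nearly equal, 50.2% and 48.7% in bulk and 47.6% and 47.2% in OCSC, and MERTK leads in both when the union of exons is the length. AXL was 1.04% of the receptors in COV318-MGP bulk and 4.16% to 18.4% in the 6 remaining libraries. The receptors of COV318-MGP summed to 303 normalized counts per kb in bulk and 287 in OCSC, compared with 60.5 and 62.8 in COV318-CTR and 71.3 to 106 in OVCAR3.

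**Figure D4:**
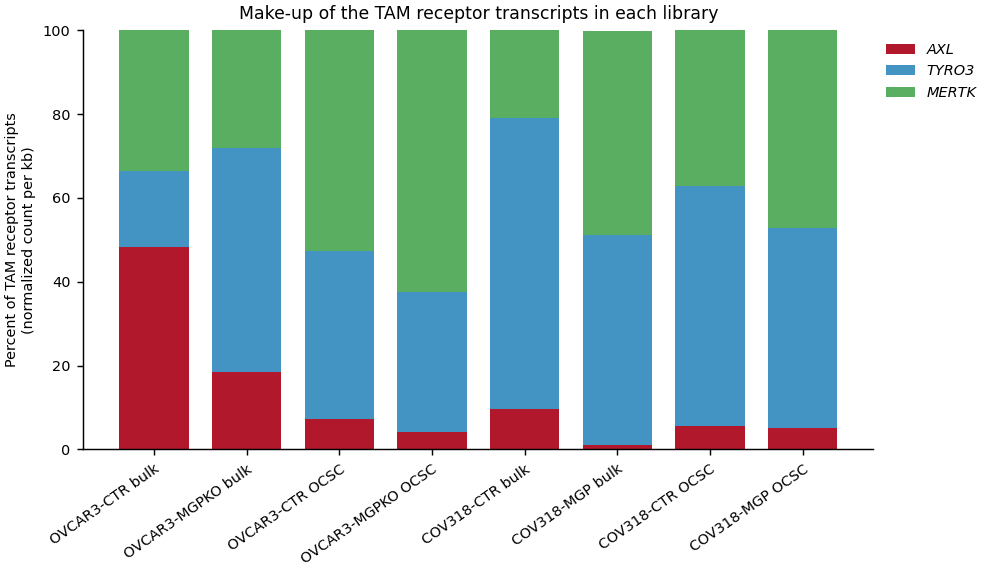
Share of AXL, TYRO3 and MERTK in the TAM receptor transcripts (vertical axis, percent of normalized counts per kb of canonical transcript) in each of the 8 libraries (horizontal axis). AXL takes 48.2% in OVCAR3-CTR bulk and 1.04% in COV318-MGP bulk, and TYRO3 takes 69.4% in COV318-CTR bulk.

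Growth as OCSC was compared with bulk in each population, using the same 8 libraries as above, so these values are not independent of the preceding ones. The medium changed together with growth as spheres, so their effects cannot be told apart. In OVCAR3-CTR, VKORC1 was higher by a log2FC of 1.11 (0.85 to 1.38) and AXL was lower, with -3.06 (-3.72 to -2.53), 2 of the 6 members with enough counts, against 20.4% of all genes. In OVCAR3-MGPKO, GAS6 at -1.21 (-2.08 to -0.47), AXL at -2.46 (-3.43 to -1.75) and TYRO3 at -1.08 (-1.33 to -0.83) were lower, 3 of 8, against 12.1% of genes. AXL thus fell below its bulk level in OCSC of both OVCAR3 genotypes. In COV318-CTR, GAS6 was higher, with 3.89 (3.39 to 4.61), and PROS1 lower, with -1.33 (-1.75 to -0.94), 2 of 8, against 14.8% of genes. In COV318-MGP, AXL was higher, with 2.17 (1.53 to 2.97), 1 of 9, against 13.9% of genes. MGP itself went from 22215 normalized counts in bulk to 41076 in OCSC of the same cells, a log2FC of 0.89 (0.86 to 0.91), under the threshold.

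The control lines were compared with each other in the same way. Line and passage, and in bulk also the medium, cannot be told apart here. In bulk, COV318-CTR was above OVCAR3-CTR in PROS1 by a log2FC of 3.54 (2.78 to 4.57), VKORC1 by 1.39 (1.15 to 1.65), VKORC1L1 by 1.14 (1.02 to 1.26) and TYRO3 by 1.11 (0.81 to 1.43). It was below OVCAR3-CTR in AXL, at -3.08 (-3.62 to -2.67), and MERTK, at -1.47 (-1.93 to -1.04). These are 6 of the 7 members with enough counts, against 49.4% of all genes. In OCSC, GAS6 at 2.87 (2.36 to 3.48) and PROS1 at 1.78 (1.14 to 2.54) were higher in COV318-CTR and GGCX at -1.10 (-1.20 to -1.01) was lower, 3 of 7, against 49.2% of genes. PROS1 was the only member past 2-fold in both cultures. With counts scaled to CPM, GGCX in OCSC stood at -0.89 and was no longer 2-fold lower.

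Of 34 other genes listed around these pathways, 25 were in the table. Between COV318-MGP and COV318-CTR, 15 of the 19 with enough counts differed 2-fold in bulk, 4 higher and 11 lower, against 45.6% of all genes, and 14 of 18 in OCSC, 7 higher and 7 lower, against 46.8%. Their median log2FC was -1.32 in bulk and -0.33 in OCSC, opposite in sign to the medians of the members. Between OVCAR3-MGPKO and OVCAR3-CTR, 4 of 17 differed in bulk, 3 higher and 1 lower, against 15.6%, and 1 of 18 in OCSC, against 8.27%. FAM20C was that gene, lower in the knockout, from 65 to 19 counts (log2FC -1.81, -2.69 to -1.11), a secretory pathway kinase that phosphorylates MGP and many other secreted proteins. Between OCSC and bulk, 5 of 18 listed genes differed in OVCAR3-CTR, all higher (20.4% of all genes), and 5 of 17 in OVCAR3-MGPKO, 3 higher and 2 lower (12.1%). In COV318-CTR 8 of 21 differed, 2 higher and 6 lower (14.8%), and in COV318-MGP 4 of 17, all higher (13.9%). Between the control lines, 12 of 20 differed in bulk, 5 higher and 7 lower in COV318-CTR (49.4% of all genes), and 14 of 18 in OCSC, 2 higher and 12 lower (49.2%).

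Among enzymes that handle vitamin K and modifiers of carboxylation, 5 of 6 genes differed in each COV318 culture, against 45.6% of all genes in bulk and 46.8% in OCSC. NQO1 and AIFM2 (FSP1) are quinone reductases outside the VKORC1 pair that can reduce vitamin K. NQO1 had 1850 counts in COV318-CTR bulk and 237 in COV318-MGP bulk, 1165 and 154 in OCSC, a log2FC of -2.92 (-3.14 to -2.74) and -2.97 (-3.23 to -2.73). AIFM2 was lower as well, with -2.22 (-3.09 to -1.62) in bulk and -2.35 (-3.75 to -1.34) in OCSC, on 20 and 8 counts in COV318-MGP. FAM20C had 3 counts in COV318-CTR bulk and 282 in COV318-MGP bulk, a ratio of normalized counts of 96.0 (32.5 to 468). In OCSC it had 4 and 75, a log2FC of 3.96 (2.76 to 6.09). CALU, an inhibitor of the carboxylase in the endoplasmic reticulum, was lower in bulk at -1.32 (-1.35 to -1.30) and at -0.61 (-0.66 to -0.57) in OCSC. FURIN, a protease that cleaves propeptides, was lower in bulk at -1.0 (-1.13 to -0.88), just at the threshold, and higher in OCSC at 1.22 (0.99 to 1.45). The 5 of 6 in bulk therefore includes a gene whose call depends on the scaling of the libraries. CYP4F11, which hydroxylates vitamin K for disposal, was higher in OVCAR3-MGPKO bulk, from 71 to 421 counts, at 2.13 (1.78 to 2.53), and stood at -0.65 (-0.98 to -0.33) in OCSC.

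Of 12 other Gla proteins, 6 were in the table, and the clotting factors F7 and F10 and protein C (PROC) were under the minimum in each comparison with MGP-manipulated cells. The transmembrane Gla protein PRRG4 was higher in COV318-MGP, with 109 and 469 counts in bulk, a log2FC of 2.12 (1.83 to 2.45), and 18 and 128 in OCSC, 2.73 (2.06 to 3.58). PRRG2 was higher in COV318 OCSC, from 20 to 45 counts, at 1.09 (0.33 to 1.95), whereas PRRG1 did not reach 2-fold in any of the 4 comparisons.

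Around the TAM receptors, TUB (tubby), a further ligand of MERTK, rose past the threshold in COV318-MGP from 286 to 3463 counts in bulk, a log2FC of 3.62 (3.45 to 3.81), and from 55 to 1338 in OCSC, 4.53 (4.16 to 4.97). It was also higher in OVCAR3-MGPKO bulk, at 1.20 (0.93 to 1.48). LGALS3 (galectin-3), reported as a MERTK ligand, was lower in COV318-MGP, at -1.59 (-1.98 to -1.25) in bulk and -1.64 (-1.99 to -1.31) in OCSC. ADAM10, a protease that sheds AXL and MERTK, was lower as well, at -1.95 (-2.00 to -1.90) and -1.57 (-1.66 to -1.49). ADAM17, the second of these proteases, was at -0.78 (-0.83 to -0.72) and -0.99 (-1.09 to -0.90), short of 2-fold. SOCS3, a suppressor of cytokine signalling that TAM receptors are known to induce, was lower in COV318-MGP, from 2208 to 71 counts in bulk at -4.89 (-5.29 to -4.59) and from 299 to 117 in OCSC at -1.40 (-1.73 to -1.09).

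MGP is known to bind bone morphogenetic proteins, and these ligands did not move as a block. BMP2 was higher in COV318-MGP, from 158 to 1746 counts in bulk, a log2FC of 3.48 (3.26 to 3.74), and from 31 to 555 in OCSC, 4.08 (3.59 to 4.68). BMP7 was lower, from 7683 to 1670 counts in bulk, -2.17 (-2.25 to -2.10), and from 4710 to 555 in OCSC, -3.14 (-3.27 to -3.01). BMP4 was lower in bulk at -2.28 (-2.53 to -2.06) and stood at -0.04 (-0.48 to 0.41) in OCSC, and it was higher in OVCAR3-MGPKO bulk at 1.29 (1.05 to 1.54). FN1 (fibronectin), which binds MGP in the matrix, was lower in COV318-MGP bulk at -2.10 (-2.15 to -2.06) and higher in COV318-MGP OCSC at 3.40 (3.27 to 3.54).

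**Figure D5:**
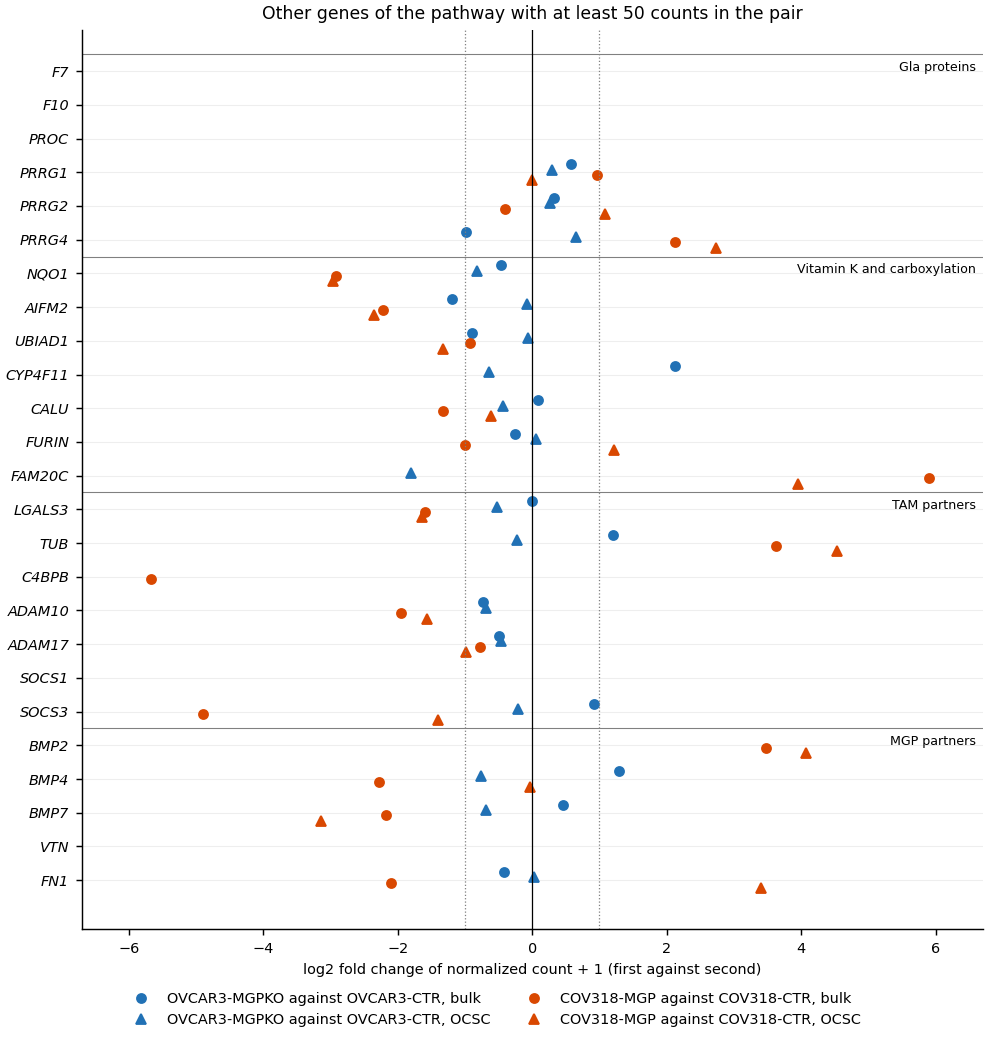
Log2 fold change of normalized count + 1 (horizontal axis) of the other pathway genes (vertical axis, grouped) between MGP-manipulated and control cells, blue for OVCAR3 and orange for COV318, circles for bulk and triangles for OCSC, with dotted lines at a 2-fold difference. Values are drawn only with at least 50 counts in both libraries together, and the COV318 markers reach from -4.89 for SOCS3 to 5.90 for FAM20C, leaving out C4BPB. The place of C4BPB depends on the count added because it had 0 counts in COV318-MGP bulk, as does that of FAM20C with 3 counts in COV318-CTR bulk, while the OVCAR3 markers lie between -1.81 and 2.13.

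Similar profiles across the 8 libraries are given as a description. The points share lines and cultures, and 2 of them are the COV318-MGP libraries, so r of the first gene is also given over the other 6. For the genes named after it, r over these 6 was 0.88 to 0.98, MGP not included. Among 15854 other genes with at least 50 counts in a library, the gene most like VKORC1 was C3orf67 (r = 0.992, 0.97 over 6), with PDXP (0.992) and RNF8 (0.985) next. TYRO3 was most like PRIM1 (0.994, 0.99 over 6), SMC3 (0.990) and MCM10 (0.982), which encode a DNA primase subunit, a cohesin subunit and a replication factor. PROS1 was most like ZNF674-AS1 (0.986, 0.99 over 6), MAPRE2 (0.981) and SPARC (0.980). GAS6 was most like CHRD, which encodes the BMP antagonist chordin (0.981, 0.96 over 6), SLC47A1 (0.971) and C3orf70 (0.964).

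MERTK was most like GAD1 (0.989, 0.97 over 6), SYNE3 (0.987) and C2CD4C (0.986), and AXL was most like UPP1 (0.945, 0.96 over 6), NRF1 (0.940) and LINC01881 (0.936). GGCX was most like PPP5C (0.958, 0.96 over 6), FAM168A (0.954) and TRUB2 (0.940), and VKORC1L1 was most like LOC101929076 (0.969, 0.97 over 6), CALD1 (0.966) and CLDN2 (0.963). For MGP the leading genes were NEFL (0.998), PEBP1 (0.997) and EN1 (0.997), an r set by the 2 libraries with MGP counts. Among the members other than MGP, r was highest between PROS1 and TYRO3 (0.92, 0.71 over 6), VKORC1 and TYRO3 (0.91, 0.56 over 6) and VKORC1 and PROS1 (0.91, 0.66 over 6), so these 3 likenesses were weaker without COV318-MGP.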

How the data were processed

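The authors made paired-end RNA-seq libraries, aligned reads to hg38 with STAR (2.7.5c in the submitters' processing notes) and deposited raw counts per gene. Several library kits are named without saying which was used, and the annotation and strand setting are not given in the sources used here. The deposited signal per library is the count divided by the DESeq2 median-of-ratios size factor, and recomputed values differed from it by at most 4.97e-05. Each of the 20339 genes had at least 10 counts in a library.

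Log2FC was computed on normalized counts + 1, with calls at 2-fold and at least 50 counts in the pair. With 1 library per condition there was no test. Intervals are exact 95% Clopper-Pearson intervals of a ratio of 2 counts. Lengths and positions came from GENCODE 44, windows from RefSeq. One sequence is not reported here. Members and gene lists were chosen with earlier results of these data known. Named were the 9 members, listed pathway genes past 2-fold with an MGP-manipulated library or as examples, and for each member the 3 genes with the highest r. PRRG1, ADAM17, F7, F10 and PROC were named after their values were seen. Alternatives were edgeR TMM factors, CPM, size factors within each pair, pseudocounts of 0.5 and 5, no minimum or 200 counts, a 1.5-fold threshold, and an interval that excludes no change. The functions were tested on Poisson counts simulated from the mean level of each gene over all 8 libraries. In the pairs of COV318-MGP and COV318-CTR, 200 of 20339 genes were changed by a log2FC of 3. Of these, 200 were recovered in bulk and 193 in OCSC, and 4 of 15777 and 6 of 13575 unchanged genes were called. The simulation held no spread beyond counting error and far fewer changed genes than COV318 had past the threshold. It checks the functions only. Tools were Python 3.11.15, numpy 2.4.6, pandas 2.3.3, scipy 1.17.1, matplotlib 3.10.9, R 4.3.3 and edgeR 4.0.16.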

Additional observations from a re-analysis of the deposited data

Results flagged for a closer look

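In each of these results a comparison ran in opposite directions in different settings, with counting intervals that exclude no change on both sides. With 1 library per condition the differences themselves were not tested against replicate spread.

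AXL was lower in COV318-MGP than in COV318-CTR in bulk (log2FC -0.84) and higher in OCSC (2.04), a difference of -2.88. Its OCSC-to-bulk log2FC was -3.06 in OVCAR3-CTR and -2.46 in OVCAR3-MGPKO but 2.17 in COV318-MGP, differences of -5.23 and -4.63 that share the COV318-MGP libraries. In COV318-CTR the AXL value was -0.71 (-1.84 to 0.21), from 51 to 11 counts, so only COV318-MGP had AXL higher in OCSC. TYRO3 was higher in OVCAR3-MGPKO than in its control in bulk (1.37) and lower in OCSC (-0.46), a difference of 1.83. Seen from the culture side, the same 4 libraries gave 0.75 in OVCAR3-CTR and -1.08 in OVCAR3-MGPKO, again 1.83 apart.

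GAS6 was lower in OCSC than in bulk of OVCAR3-MGPKO (-1.21) and higher in OCSC of COV318-CTR (3.89), a difference of -5.10. These populations differ in line as well as in MGP label. In OVCAR3-CTR the GAS6 value was 1.0 (-0.01 to 2.22), from 10 to 34 counts, too few for a call. COV318-MGP gave 0.11 (-0.16 to 0.38). The control populations thus did not show opposite directions of GAS6 in the lines. VKORC1 was higher in OCSC of OVCAR3-CTR (1.11) and lower in OCSC of COV318-CTR (-0.49), a difference of 1.60. GGCX stood at 0.11 in COV318-CTR against OVCAR3-CTR in bulk, equal to the median of all genes there (0.11), and was lower in OCSC (-1.10, median -0.08), a difference of 1.21.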

How the results depend on the processing

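Over the 78 log2FC values of members with enough counts, 5 other scalings and pseudocounts gave 390 values, of which 388 kept their side of the 2-fold threshold, none with a call changed sign, and 6 without a call did. Under CPM, GGCX between the control lines in OCSC went from -1.10 to -0.89, and MERTK between OCSC and bulk of COV318-CTR from 0.87 to 1.0. CPM moved the median of all genes in COV318 bulk by 0.30. Counted over the comparisons of a kind, 17 member calls, MGP included, in the 4 comparisons with MGP-manipulated cells and 9 between control lines stayed within 1.5 times under every alternative. The 8 member calls between OCSC and bulk became 3 with at least 200 counts and 16 at a 1.5-fold threshold, and the 22 calls of the pathway list became 38 at that threshold. No test that pairs the cultures or populations was run, and with 1 library per condition none could be left out of a comparison. AXL, GAS6 and PROS1 rest on few counts in OVCAR3, as few as 10 in a library, which limits their precision. Condition and library cannot be told apart.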
